A study of Mus musculus with 6 samples.

Results

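The genes described here are the bone morphogenetic protein (BMP) pathway genes Bmp4, Bmp7, Bmpr1a, Bambi, Smad4, Smad6 and Smad7 and the Id genes Id1, Id2 and Id3. They were listed by gene symbol, with earlier results of these data known. Of the 10 genes, 9 were measured, by 14 probes among 45281, and stood among 19057 genes with a probe of their own. Smad4, the Smad shared by the BMP and TGF-beta branches, was not analysed here. Where a gene had several probes, its value is that of the brightest one by its mean over the 6 arrays.

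RNA came from mouse small intestinal organoids, epithelial structures grown in culture that carry crypt-like and villus-like regions. All organoids had the Villin-Cre transgene, which drives Cre recombinase in intestinal epithelium, and all had been given 0.5 µM tamoxifen for 24 hours. The labels name no inducible form of Cre and no share of cells that lost Snai1. The 3 control samples carried Villin-Cre alone, and the 3 Snai1 knockout samples also carried floxed Snai1 (Snai1fl/fl). Snai1 is a zinc-finger repressor, and the series title asks about its part in lineage allocation and stem cell maintenance. The sources used here do not say whether the 3 samples of a group were separate animals, cultures or wells, nor how old the mice were. The p-values therefore set each difference only against the scatter of these samples, and that scatter may be technical. Biotin-labelled cRNA was hybridised to Illumina arrays.

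BMP ligands are secreted proteins that bind pairs of type I and type II receptors. The receptors phosphorylate Smad1, Smad5 and Smad9, which enter the nucleus with Smad4. Id genes are among the best known direct targets. Id proteins have a helix-loop-helix but no DNA-binding region, so they pair with E proteins and keep them from DNA. Smad6, Smad7 and Bambi are induced by the pathway and dampen it. In the intestine, BMP signalling is strongest toward the villus and is held low at the crypt base, where antagonists from the mesenchyme protect stem cells.

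Promoter sequences from RefSeq (GRCm38.p6) were kept for 5 of the 10 genes, and 3 are shown. A chromosome was left out of the search for these genes, so a gene without a window here may still have a known promoter. Id2 and Id3 are shown because the differences of their brightest probes had opposite signs. The Id2 difference was smaller than its SE, however, and a further Id2 probe had the sign of Id3. Bmp4 is shown because its window holds the E-box core that Snail proteins are known to bind. Each run covers the 250 bases before the transcript start, 5′ to 3′ on the gene's strand. The windows are Id3 at chr4:136143572-136143821 (plus strand), Id2 at chr12:25096093-25096342 (minus strand) and Bmp4 at chr14:46390670-46390919 (minus strand). Capitals mark 2 motifs searched on both strands, CAGGTG (the E-box core) and GGCGCC (a GC-rich Smad element), which did not overlap.
Id3: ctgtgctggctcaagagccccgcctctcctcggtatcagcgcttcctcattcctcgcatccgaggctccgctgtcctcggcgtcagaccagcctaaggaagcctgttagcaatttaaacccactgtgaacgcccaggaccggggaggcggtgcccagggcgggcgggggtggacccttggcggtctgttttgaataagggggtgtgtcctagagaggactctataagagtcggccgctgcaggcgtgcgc
Id2: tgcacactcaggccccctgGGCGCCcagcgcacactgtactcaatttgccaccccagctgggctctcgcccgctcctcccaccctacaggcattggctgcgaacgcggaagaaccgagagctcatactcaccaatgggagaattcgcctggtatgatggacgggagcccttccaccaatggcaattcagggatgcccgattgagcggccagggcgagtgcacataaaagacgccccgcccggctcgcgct
Bmp4: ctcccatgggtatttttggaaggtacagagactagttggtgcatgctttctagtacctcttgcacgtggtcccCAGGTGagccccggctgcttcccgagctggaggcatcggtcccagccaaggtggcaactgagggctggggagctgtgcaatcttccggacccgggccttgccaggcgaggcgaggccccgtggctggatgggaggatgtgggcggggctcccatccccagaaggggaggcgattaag

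CAGGTG began 177 bases before the start of Bmp4 and was not among the letters of the Id2, Id3, Smad6 and Bmpr1a windows. Of 27025 promoters of that length, 1 per gene and with no chromosome left out, 17.1% held it. GGCGCC began 231 bases before the start of Id2 and 198 before that of Bmpr1a, and 9.54% of these promoters held it. These matches describe sequence only and say nothing of binding.

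The deposited values are on a log scale taken as log2, and run from 7.71 to 14.78 with a median of 7.87 on every array. Values near the median are compressed, so a fold read there is too small by an amount that cannot be known, and no detection calls were used. Of the 9 genes, 5 (Id1, Id2, Id3, Bmpr1a and Bmp7) were brighter than the upper quartile of all values, 8.27. The other 4 lay within 0.15 of the median. Snai1 itself read 7.91 ± 0.04 in control and 7.91 ± 0.05 in knockout samples by its brighter probe (SD, n = 3), too near the bottom of the scale to check the labels. The sources used here do not say which exons the probe or the deletion covers. Of 8 markers of intestinal epithelium 7 were brighter than the upper quartile. The exception was Epcam, at 8.13 in control samples. The enterocyte genes Fabp1 and Fabp2, at 7.80 and 7.82 in control samples, were also near the bottom.

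None of the 9 genes passed the test between knockout and control (limma, adjusted p under 0.05 over all genes), where 25 of all genes, 0.131%, did. None of their 14 probes passed in a fit of all probes either, where 0.0883% did. At an unadjusted p under 0.05 there were 3, Id3 and Bmp7 lower and Bmp4 higher, against 7.22% of all genes. For these 3, the knockout and control values did not overlap, against 12.0% of all genes (5.85% lower and 6.2% higher). In pairs of the same replicate number, 3 of the 9 genes (Id1, Id3 and Bmp7) were lower in 3 of 3, against 15.1% of all genes, and 1 (Bmp4) was higher in 3 of 3, against 15.7%. The median difference of the 9 genes was 0.0091 on the log2 scale, with 5 higher and 4 lower, and that of all genes was -0.0006. Without regard to sign the median was 0.076 for the 9 genes and 0.026 for all genes, a gap that was not tested. The range ran from -0.28 for Id1 to 0.079 for Bmpr1a. With the replicate number as a block, the count over all genes fell from 25 to 9 (0.0472%) and that of the 9 BMP and Id genes stayed at 0. With the block 3 of the 9 had an unadjusted p under 0.05, against 10.9% of all genes, and these were Id1, Id3 and Bmp7, without Bmp4.

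Id1, a direct BMP target in many epithelia, read 9.68, 10.21 and 9.57 in control replicates 1 to 3 and 9.46, 9.78 and 9.39 in knockout replicates 1 to 3. The groups overlapped, since knockout replicate 2 lay above control replicates 1 and 3. Within each group replicate 2 was the highest. Compared by replicate number, the knockout was lower in 3 of 3 pairs, by differences of -0.22, -0.44 and -0.18. The means differed by -0.28 ± 0.19 (SE; 9.82 ± 0.34 against 9.54 ± 0.20, SD, n = 3; adjusted p = 0.89, limma; exact permutation p = 0.3, smallest possible 0.1). The 95% confidence interval ran from -0.74 to 0.19, that is from 0.597-fold to 1.14-fold on the deposited scale. With the replicate number as a block the interval was narrower, -0.43 to -0.12, and did not include 0 (unadjusted p = 0.0069 and adjusted p = 0.21, limma). Without control replicate 2 the difference was -0.083, and its adjusted p was 0.98.

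Id3, which like Id1 is switched on by BMP receptors through Smads, read 8.50, 8.65 and 8.47 in control replicates and 8.43, 8.43 and 8.30 in knockout replicates. All knockout values lay below all control values. The means differed by -0.16 ± 0.06 (SE; 8.54 ± 0.10 against 8.38 ± 0.08, SD, n = 3; unadjusted p = 0.045 and adjusted p = 0.68, limma; exact permutation p = 0.1, the smallest possible). The interval, -0.31 to -0.0049, ended close to 0. With the replicate number as a block it ran from -0.26 to -0.057 (unadjusted p = 0.011 and adjusted p = 0.25, limma). As for Id1, control replicate 2 was the highest array and knockout replicate 3 the lowest. Without control replicate 2 the difference was -0.10, with an adjusted p of 0.83.

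Id2, a family member best known from innate lymphoid cells, did not share the pattern by its brightest probe. That probe, ILMN_1228557, read 8.80, 8.90 and 8.87 in control and 8.88, 8.89 and 8.88 in knockout replicates. The knockout values lay inside the control range. The difference was 0.030 ± 0.031 (SE; adjusted p = 0.94, limma), with an interval from -0.045 to 0.10. A further Id2 probe, ILMN_1236868, behaved otherwise, with 8.35, 8.88 and 8.33 in control and 8.43, 8.56 and 8.29 in knockout replicates. Its highest array was control replicate 2 and its lowest knockout replicate 3, as for Id1 and Id3, but its groups overlapped and its difference was -0.094 ± 0.16 (SE). The annotation ties it to the cDNA AK013239 and the other Id2 probes to NM_010496. Its remaining probe, ILMN_2887239, stayed between 7.88 and 7.94 on all arrays. The differences of the Id2 probes therefore did not share a sign, though the interval of each included 0. The mean of the Id2 probes differed by -0.022.

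**Figure D1:**
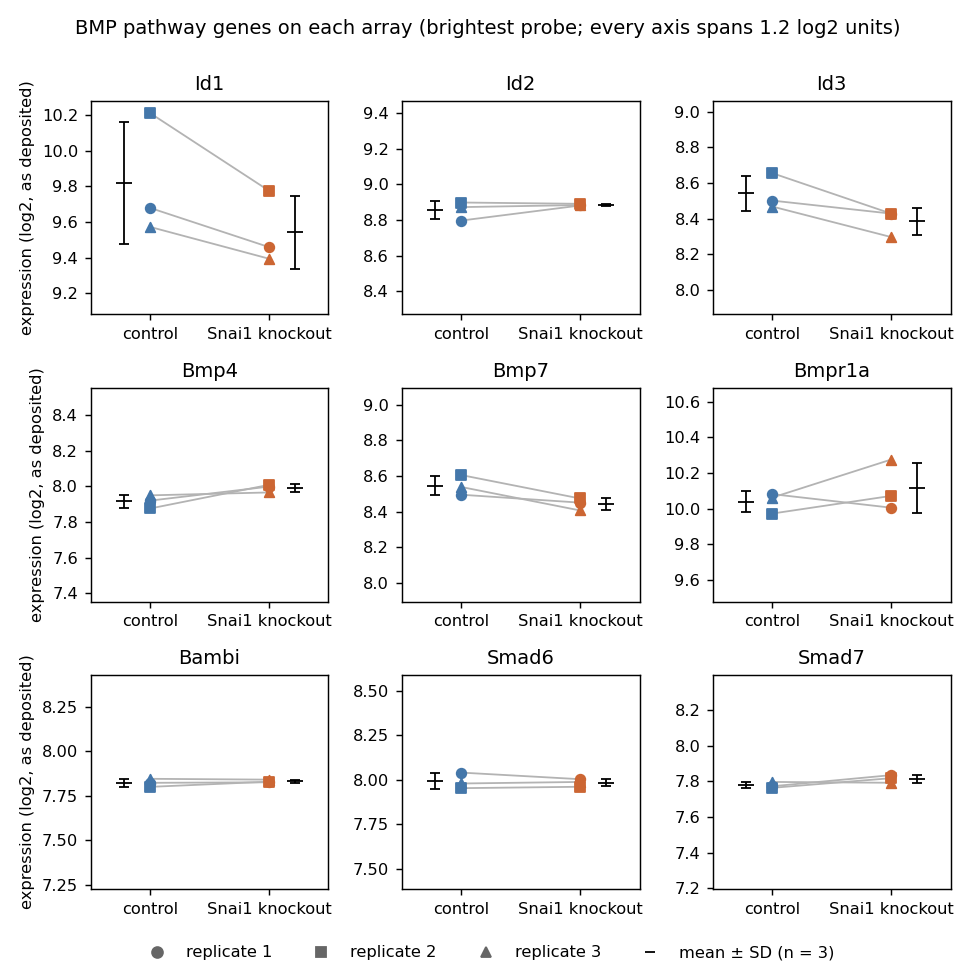
Expression of 9 BMP pathway and Id genes on each array (vertical axis, log2 as deposited, brightest probe), for control (blue) and Snai1 knockout (orange), with a marker shape for each replicate number, grey lines joining equal numbers and black bars for mean ± SD (n = 3). For Id1 and Id3 all 3 lines slope down, with Id1 spread from 9.57 to 10.21 within the controls, while Bambi, Smad6 and Smad7 stayed near the bottom of the scale.

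Among the ligands, Bmp7 read 8.49, 8.60 and 8.54 in control and 8.45, 8.47 and 8.41 in knockout replicates. All knockout values lay below all control values, by narrow margins. The means differed by -0.10 ± 0.04 (SE; 8.55 ± 0.06 against 8.44 ± 0.03, SD, n = 3; unadjusted p = 0.028 and adjusted p = 0.59, limma). With the replicate block the Bmp7 interval ran from -0.18 to -0.024 (unadjusted p = 0.021 and adjusted p = 0.33, limma). Its other probe, ILMN_1249526, tied to the cDNA AK020411, lay at the median of the array and differed by 0.010 ± 0.027 (SE), so it does not repeat the direction. Bmp7 lies on the same chromosome as Snai1 in GRCm38.p6, with 31 measured genes between them, and Id1 lies there too with 215 between. The part of that position in the values was not tested.

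Bmp4, a ligand made mainly by intestinal mesenchyme, read 7.92, 7.88 and 7.95 in control and 8.00, 8.01 and 7.97 in knockout replicates. The groups did not overlap, and the gap between the highest control and the lowest knockout value was smaller than either group's spread. The means differed by 0.076 ± 0.027 (SE; 7.91 ± 0.04 against 7.99 ± 0.02, SD, n = 3; unadjusted p = 0.031 and adjusted p = 0.61, limma). With the replicate block the interval, -0.0085 to 0.16, included 0 (unadjusted p = 0.068, limma). The dimmer probe, ILMN_1235698, read 7.80, 7.74 and 7.79 against 7.81, 7.81 and 7.83, again without overlap, with a difference of 0.038 ± 0.022 (SE). Both probes sat at the compressed end of the scale, where a true fold cannot be read. The mesenchymal markers were all at that level too. The mean over 10 of them, Pdgfra, Col1a1 and Acta2 included, was 7.86 to 7.87 on control and 7.86 to 7.87 on knockout arrays, with no marker above the upper quartile.

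Bmpr1a, the type I receptor through which the epithelium receives BMP, read 10.08, 9.97 and 10.06 in control and 10.01, 10.07 and 10.28 in knockout replicates. The groups overlapped, and the highest value came from knockout replicate 3. The means differed by 0.079 ± 0.074 (SE; adjusted p = 0.94, limma), with an interval from -0.10 to 0.26. A dimmer probe, ILMN_2653312, gave 8.74, 8.80 and 8.65 against 8.86, 8.77 and 8.90, also overlapping, and a difference of 0.12 ± 0.05 (SE; adjusted p = 0.82 over all probes). Both probes were higher in 2 of 3 pairs, though not in the same pairs.

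The inhibitors of the pathway stayed near the bottom of the scale. Bambi, a receptor-like protein without a kinase domain, read 7.82 ± 0.02 in control and 7.83 ± 0.01 in knockout samples (SD, n = 3). Smad6, the inhibitory Smad that acts mostly on BMP receptors, read 7.99 ± 0.04 and 7.98 ± 0.02. Smad7, the inhibitory Smad of both branches, read 7.77, 7.76 and 7.80 in control and 7.83, 7.82 and 7.79 in knockout replicates, a difference of 0.037 ± 0.022 (SE; adjusted p = 0.84, limma). Its groups overlapped through knockout replicate 3. At such levels neither a presence nor a change of these transcripts could be read.

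**Figure D2:**
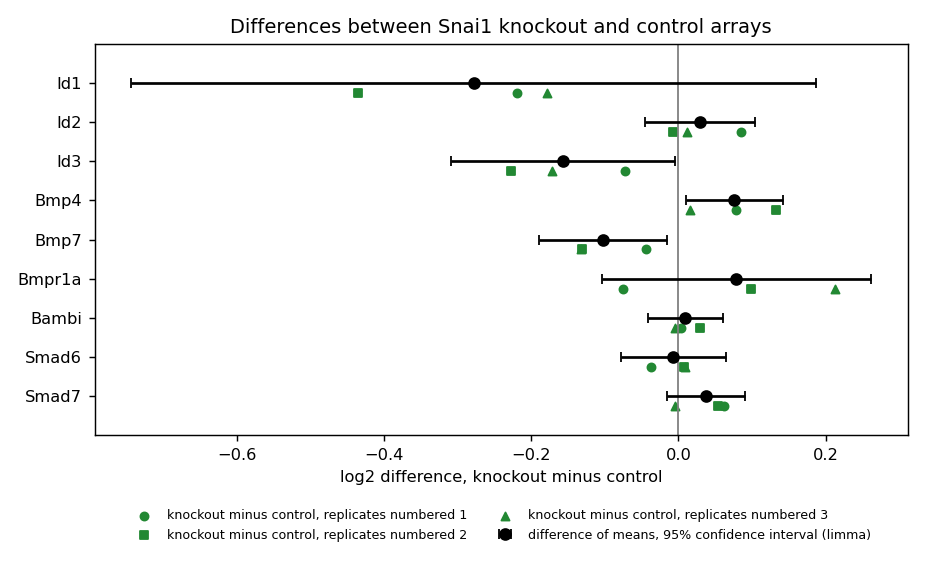
Log2 difference between Snai1 knockout and control (horizontal axis) for the 9 genes, with black points and bars for the difference of means and its 95% confidence interval (limma, 3 arrays a group) and green markers for the difference within each replicate number. Id1 has the widest interval, -0.74 to 0.19, although its 3 pairs all lie below 0.

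One array stood at an end of the range for every gene. Control replicate 2 was either the highest or the lowest of the 6 arrays for 9 of 9 genes, and for 12 of 14 probes. Among all genes it was so for 38.7%, and for the other 5 arrays that share ran from 30.7% to 34.7%. It was highest for Id1, Id2, Id3 and Bmp7 and lowest for Smad6, Smad7, Bambi, Bmpr1a and Bmp4. The number of the 9 genes with an unadjusted p under 0.05, 3 with all arrays, was 0 without it, 0 without knockout replicate 1, and 1 or 2 without each of the other arrays. Without control replicate 2, Bmp7 differed by -0.073 and Bmp4 by 0.056. Knockout replicate 3 was at an end for 4 of the 9 genes.

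**Figure D3:**
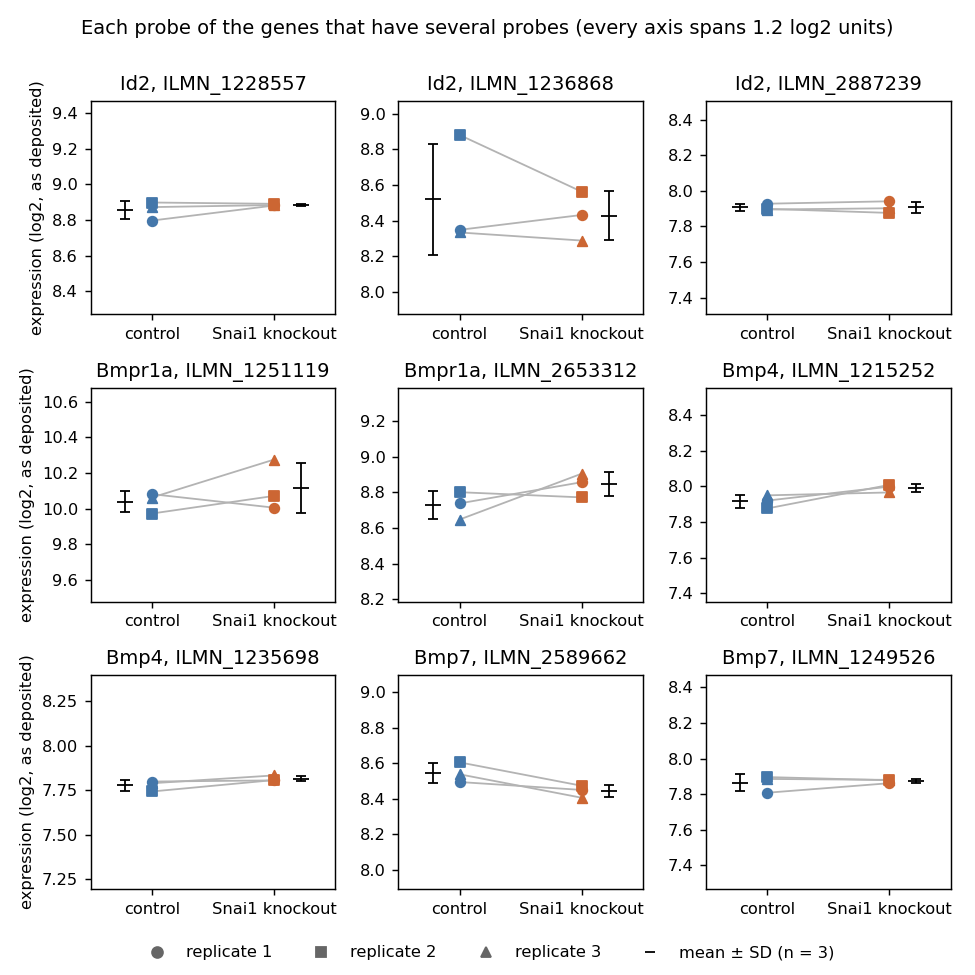
Each of the 9 probes of Id2, Bmpr1a, Bmp4 and Bmp7 on each array (vertical axis, log2 as deposited; colours, marker shapes, lines and bars as in the plot of the 9 genes). The second Id2 probe is high on control replicate 2, at 8.88, while the first spans only 8.80 to 8.90, and both Bmp4 probes lie near the bottom of the scale.

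The wider pathway was described with 81 genes listed by role, of which 76 were measured, the 9 genes above included. None passed over all genes in either direction, and 6 of 76 had an unadjusted p under 0.05, 4 higher and 2 lower, a share close to the 7.22% of all genes. Id3, Bmp7 and Bmp4 were among the 6. Of the 67 genes not described above, 3 had such a p, 3 higher and 0 lower. The median difference was 0.0082, with 45 genes higher and 31 lower, beside -0.0006 for all genes. Only 26 of the 76 were brighter than the upper quartile. With the replicate block none passed, and 11 of 76 had an unadjusted p under 0.05, where the share of all genes also rose, to 10.9%. Id1, Id3 and Bmp7 were among the 11, and the 8 others were higher.

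Counts of genes higher or lower by role stand beside 49.3% higher among all genes, and the sign of a dim gene is uncertain. Of 12 ligands 2 were higher and 10 lower, with a median of -0.014. Bmp8a (-0.039), Bmp5 (-0.051) and Bmp8b (-0.046) had the lowest p among those not yet described, and all lay near the bottom of the scale. Of 12 receptors and coreceptors 9 were higher. Rgmb, a BMP coreceptor, read 8.40, 8.36 and 8.21 in control and 8.42, 8.45 and 8.54 in knockout replicates. Its groups did not overlap, and the difference was 0.14 ± 0.06 (SE; adjusted p = 0.69, limma). Bmpr2, the type II receptor, differed by 0.076 ± 0.032 from a level of 10.1, and Hjv, the coreceptor hemojuvelin, by 0.042.

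Among 12 measured Smads and Smad regulators 8 were higher and none passed. Usp15, a deubiquitinase that acts on Smads and receptors, read 8.09, 8.07 and 8.10 in control and 8.15, 8.16 and 8.16 in knockout replicates. Its difference of 0.071 ± 0.020 (SE) had the lowest adjusted p of the 76 genes, 0.46 (limma). Smad1, a BMP receptor substrate, differed by 0.16 ± 0.11 and was higher in 3 of 3 pairs, and Smad9, near the bottom of the scale, by -0.029. Of 13 secreted antagonists and modulators 9 were higher. Twsg1 (twisted gastrulation), which binds BMPs and chordin, read 10.44, 10.23 and 10.34 in control and 10.46, 10.60 and 10.52 in knockout replicates, without overlap. The difference was 0.19 ± 0.06 (SE; unadjusted p = 0.021 and adjusted p = 0.55, limma). Nbl1 differed by -0.058 and Chrdl1 by 0.036. The crypt antagonists Nog and Grem1, named after their values were seen, read 7.77 and 7.84 in control samples, at the bottom of the scale.

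Targets other than Id1, Id2 and Id3 were dim. Atoh8 differed by -0.019, Id4 by 0.011 and Hamp, the hepcidin gene and a BMP target of liver, by 0.0058. The E proteins with which Id proteins pair had higher means, 0.077 ± 0.048 for Tcf3, 0.080 ± 0.064 for Tcf12 and 0.043 ± 0.093 for Tcf4 (SE), each higher in 2 of 3 pairs and none passing. In the TGF-beta and activin arm 10 of 16 were higher. Tgfbr2, the type II TGF-beta receptor, read 11.43, 11.29 and 11.55 in control and 11.41, 11.75 and 11.93 in knockout replicates, which overlapped. Its difference was 0.27 ± 0.14 (SE; adjusted p = 0.79, limma), and Smad2 differed by 0.060 and Ltbp1 by 0.033.

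**Figure D4:**
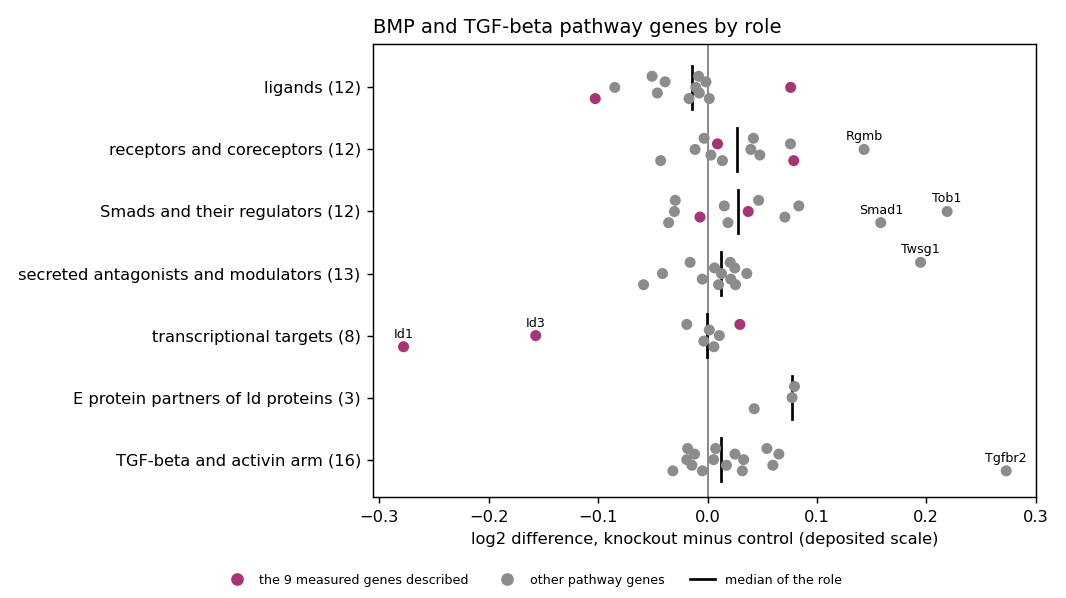
Log2 difference between knockout and control (horizontal axis, deposited scale) for 76 measured pathway genes by role, with the number of genes in brackets, the 9 genes described in purple, others in grey and a black line at each role's median. Vertical scatter within a role only separates points. Most genes lie near 0, with Id1 at -0.28 and Id3 at -0.16 on one side and Tgfbr2 at 0.27, Tob1 at 0.22 and Twsg1 at 0.19 on the other, none of them called.

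Markers of other cell states are given beside the Id values. Of 4 crypt base stem cell markers, Olfm4 differed by 0.45 ± 0.13 (SE; adjusted p = 0.48, limma) and Lgr5 by 0.42 ± 0.18 (SE; adjusted p = 0.73, limma). With the replicate block the adjusted p was 0.35 for Olfm4 and 0.069 for Lgr5 (limma). Ascl2 differed by 0.045 and Smoc2 by 0.0093. The mean level of the 4 markers ran from 8.88 to 9.14 on control and from 9.07 to 9.31 on knockout arrays. The 7 enterocyte markers did not share a direction, with Apoa1 at -0.28 ± 0.11 (SE; adjusted p = 0.68, limma), Alpi at -0.24, Apoa4 at -0.098, Lct at 0.22, and Sis, Fabp1 and Fabp2 between -0.019 and -0.0007. Their mean level overlapped, 10.76 to 11.07 against 10.79 to 11.02. Measured markers of immune cells and endothelium, 4 each, all lay below the upper quartile. None of these markers passed over all genes, and their part in the Id and Bmp values was not tested. In whole organoids, fewer cells of a type and less RNA per cell cannot be told apart.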

How the data were processed

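The authors' deposited table gives 1 log-scale value, taken as log2, per probe and array. Sorted values of the 6 arrays agreed to within 0.0019, as after quantile normalization by the authors. The sources used here name no background correction, software or log base. Per the labels' protocols, Trizol RNA was treated with DNase and amplified to biotinylated cRNA.

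The platform's annotation gave 34885 probes 1 gene and 18 several, and 10378 probes stayed unnamed. By gene number, the GRCm38.p6 table held 34807 of the former. No dim gene was filtered out. Knockout and control were compared in R 4.3.3 by limma 3.58.1 (eBayes without trend, two-sided, Benjamini-Hochberg over all genes, threshold 0.05), which was tested on simulated data. The number of arrays limits the precision.

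The genes, pathway lists and markers were chosen with earlier results of these data known. Named were the 9 measured genes with every probe, Snai1, and in each role list the 3 other genes of lowest p. Tob1, Nog, Grem1 and markers were added. No p was adjusted over a list alone.

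Replicates of the same number deviated together from their group means over all genes. The correlation r was 0.35, 0.33 and 0.46 for numbers 1, 2 and 3, and ran from -0.33 to 0.0026 between unlike numbers. The numbers were therefore taken as pairing samples in the block, a choice read from these same values. Deviations cancel within a group, so a positive r at equal numbers pushes r between unlike numbers toward negative values. The contrast between equal and unlike numbers is therefore partly arithmetic. The labels do not say what a number shares. The first fit had no block, and results given without mention of a block come from it. Alternatives were the replicate block, other normalizations, filters on dim genes, averaged probes, other variance models, array weights and leaving out each array.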

Additional observations from a re-analysis of the deposited data

How the results depend on the processing

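None of the 9 genes, 14 probes or 76 pathway genes passed in any of the alternatives run. The count over all genes was 25, and became 9 with the replicate block, 41 among the 6969 genes above the upper quartile, 60 with an intensity trend and 4 to 23 with 1 array left out (6, 15 and 9 on leaving out control replicates 1, 2 and 3, and 23, 13 and 4 on leaving out those of the knockout). Id1, Id3 and Bmp7 stayed lower and Bmp4 and Smad7 higher in every alternative that kept them. The block, the filters and the other variance models leave a difference of means unchanged, so they could not turn a sign. Averaging probes could not either for Id1, Id3 and Smad7, which have 1 probe. Filters on dim genes removed Bambi and Smad7 (median) and also Smad6 and Bmp4 (upper quartile). Id1 ran from -0.40 to -0.083. The replicate block changed no call of these genes. The sign turned, the cause untested, for Id2 with averaged probes (-0.022), and among values without 1 array for Smad6 (-0.026 to 0.018, and 0.0047 without knockout replicate 2), Bambi (-0.0022 to 0.020) and Bmpr1a (-3e-04 to 0.13). Signal near the bottom of the scale limits what Bmp4, Bambi, Smad6 and Smad7 can show. Id3 and Bmp7 averaged only 0.59 and 0.62 above the array median, so their folds may be compressed too. No background correction or scan block could be tried from normalized values.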
